A study of Mus musculus with 30 samples.

Results

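The genes described here are 49 genes of the G1/S transition and of DNA replication, found by their symbols in the count tables of mouse embryonic stem (ES) cells. They are 49 of 20300 genes in the exonic table and 49 of 17916 in the intronic table, with 1 row each. All 49 passed the filter on low counts in both tables, so that 14092 genes were tested over exons and 14075 over introns. The cells were EKOiE-Ccna-Gfp, ES cells of strain 129/Ola that lack the endogenous Esrrb gene and carry an Esrrb transgene switched on by doxycycline (DOX), with a Ccna2-Gfp reporter. They grew on gelatine in medium with serum and LIF and were sorted with the reporter into early G1, late G1 and G2, either with DOX or 24 h after its withdrawal, which gave 6 groups of 3 stranded mRNA-seq libraries. All 6 groups share the knockout, the transgene and the reporter, and the labels do not say whether the line is 1 clone. Esrrb ChIP-seq came from EKOiE cells without the reporter in asynchronous culture (interphase) and in mitosis, with 4 libraries each with DOX and 2 each after 48 h of withdrawal. In interphase and in mitosis, the DOX library numbered 2 came instead from wild-type E14Tg2a cells. Whether the libraries within a group stem from independent cultures is not stated, so p-values measure only the spread between these samples, which may be technical.

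Before S phase, the origin recognition complex and Cdc6 load the MCM helicase on DNA, and Cdc45 and the GINS complex then switch the helicase on. The polymerases copy DNA with the clamp PCNA, which the RFC complex loads, and with RPA on single strands, while ribonucleotide reductase and its partners supply nucleotides. Many of these genes are targets of E2F factors, which are held back by pocket proteins until cyclin-dependent kinases act in G1. ES cells have a short G1 and are known for weak control of this step, while Esrrb is an orphan nuclear receptor of their pluripotency network.

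Promoters are shown first because many of these genes are textbook E2F targets. RefSeq promoters of build GRCm38.p6, from 250 bases before to 50 after the start, were matched by symbol for 40 of the 49 genes. The E2F words searched on both strands were TTTGGCGC, TTTCCCGC, TTTGCCGC and TTTCGCGC, and 1 stretch can hold overlapping words. At least 1 word stood in 16 of 40 (40%) of these promoters, in 490 of 10650 (4.6%) promoters of genes tested in exons, and in 704 of 27025 (2.6%) genes of the whole table. Among 56 other replication genes, described further down, 18 of the 44 with a promoter (40.9%) held a word. The words were present in the promoters of Cdc6, Clspn, Dtl, Gins3, Lig1, Mcm3, Mcm5, Mcm6, Mcm7, Msh6, Orc1, Pola1, Pold1, Pole2, Rfc3 and Uhrf1. A match describes letters and not a bound site. The 120 bases before the start are printed below, 5′ to 3′ on the strand of the gene, for the 5 genes with a word inside that stretch, with the words in capitals. They lie at chr4:108579334-108579453 on the plus strand (Orc1), chr1:128359706-128359825 on the minus strand (Mcm6), chr8:95633439-95633558 on the plus strand (Gins3), chr5:151651209-151651328 on the minus strand (Rfc3) and chr1:191575545-191575664 on the minus strand (Dtl).
Orc1 promoter: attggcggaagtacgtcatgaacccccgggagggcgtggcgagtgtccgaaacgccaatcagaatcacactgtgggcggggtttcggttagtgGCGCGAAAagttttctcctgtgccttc
Mcm6 promoter: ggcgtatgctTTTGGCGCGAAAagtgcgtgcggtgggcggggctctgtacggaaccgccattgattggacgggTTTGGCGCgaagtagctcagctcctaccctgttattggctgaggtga
Gins3 promoter: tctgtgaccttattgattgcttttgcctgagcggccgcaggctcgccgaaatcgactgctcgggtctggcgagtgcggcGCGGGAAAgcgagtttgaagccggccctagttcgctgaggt
Rfc3 promoter: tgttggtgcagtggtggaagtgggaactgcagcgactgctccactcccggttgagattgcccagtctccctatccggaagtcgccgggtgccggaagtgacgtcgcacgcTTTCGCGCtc
Dtl promoter: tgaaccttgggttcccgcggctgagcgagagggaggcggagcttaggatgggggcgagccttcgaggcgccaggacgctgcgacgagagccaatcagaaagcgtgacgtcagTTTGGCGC
Mcm6 held 3 matches, while Orc1, Gins3 and Dtl held 1 each. Rfc3 held 2, of which 1 is inside the printed stretch. The word CCAAT was in 26 of 40 promoters (65%), against 43.1% of promoters of genes tested in exons. The Esrrb word TCAAGGTCA was in 0 of 40, against 0.36%.

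Total exonic counts were between 11.1 M and 31.8 M per library, and these 49 genes held between 0.753% and 1.13% of them. Esrrb, the gene under DOX control, was at 203, 278 and 247 CPM (counts per M counts, scaled by TMM) in early G1 with DOX and at 139.7, 193 and 155 after withdrawal. In late G1 the values were 323, 286 and 341 against 160.1, 162 and 173, and for G2 they were 304, 262 and 254 against 195, 193 and 183, so that withdrawn libraries were lower in every phase without overlap. Over exons, edgeR gave log2 changes of -0.58 (adjusted p = 0.120), -0.94 (adjusted p = 0.00385) and -0.52 (adjusted p = 0.0699). With the replicate number as a block these adjusted p were 0.0138, 0.000395 and 0.0123. The 8 ES cell markers, which include Esrrb, summed to 3741 to 5315 CPM in every library. In late G1 they were at 4762 to 5092 CPM with DOX and 3975 to 4606 after withdrawal, while early G1 and G2 overlapped. The 7 fibroblast or feeder markers summed to 6.67 to 12.4 CPM and the 6 primitive endoderm markers to 4.09 to 13.9 CPM. The feeder marker Postn had at most 3 counts in any library. The 6 neural and mesodermal markers summed to 41.9 to 75.9 CPM. In G2 these were at 41.9 to 53.0 CPM with DOX and 55.7 to 75.9 after withdrawal, while the DOX states overlapped in early and late G1.

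All 49 genes had a higher fitted exonic level in late G1 than in early G1, in cells with DOX and after withdrawal alike. The median log2 difference was 0.22 with DOX, 0.23 after withdrawal and 0.23 averaged over both states, against a median of 0.00 over all genes tested, of which 51.1% were higher in the averaged comparison. Within a DOX state these values depended on single libraries. With DOX the median was 0.10 (44 genes higher) without replicate 3 of late G1 and 0.12 (41 higher) without replicate 1 of early G1, and any fit without 1 library had at most 47 higher. After withdrawal the median was 0.14 (46 higher) without replicate 2 of late G1. No single gene passed the test. Called at an adjusted p under 0.05 by edgeR were 0 of the 49 genes and 0 genes in all (0%) in the averaged comparison and in each DOX state, and by DESeq2 also 0. At an unadjusted p under 0.05 the averaged comparison held 19 of 49 genes, against 410 of 14092 (2.91%). With the replicate number as a block these were 36 of 49 and 1255 of 14092 (8.91%), with 0 called after adjustment. DESeq2 gave 20 genes of the 49 at an unadjusted p under 0.05, against 487 of 18436 (2.64%).

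From late G1 to G2 the direction turned. The fitted level in G2 was below that in late G1 for 45 of 49 genes in the averaged comparison, with a median log2 difference of -0.19, against -0.01 over all genes tested. The exceptions were Pola1, Rfc1, Rfc5 and Msh6, whose log2 differences were between 0.00 and 0.04. Here too edgeR and DESeq2 called 0 genes in all. Unadjusted p under 0.05 was reached by 17 of 49, against 622 of 14092 (4.41%), and with the replicate block by 30 of 49, against 1555 of 14092 (11%). This comparison shares the late G1 libraries with the one above. Between G2 and early G1 the averaged median was 0.01, with 25 of 49 genes higher, and 0 were called.

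**Figure D1:**
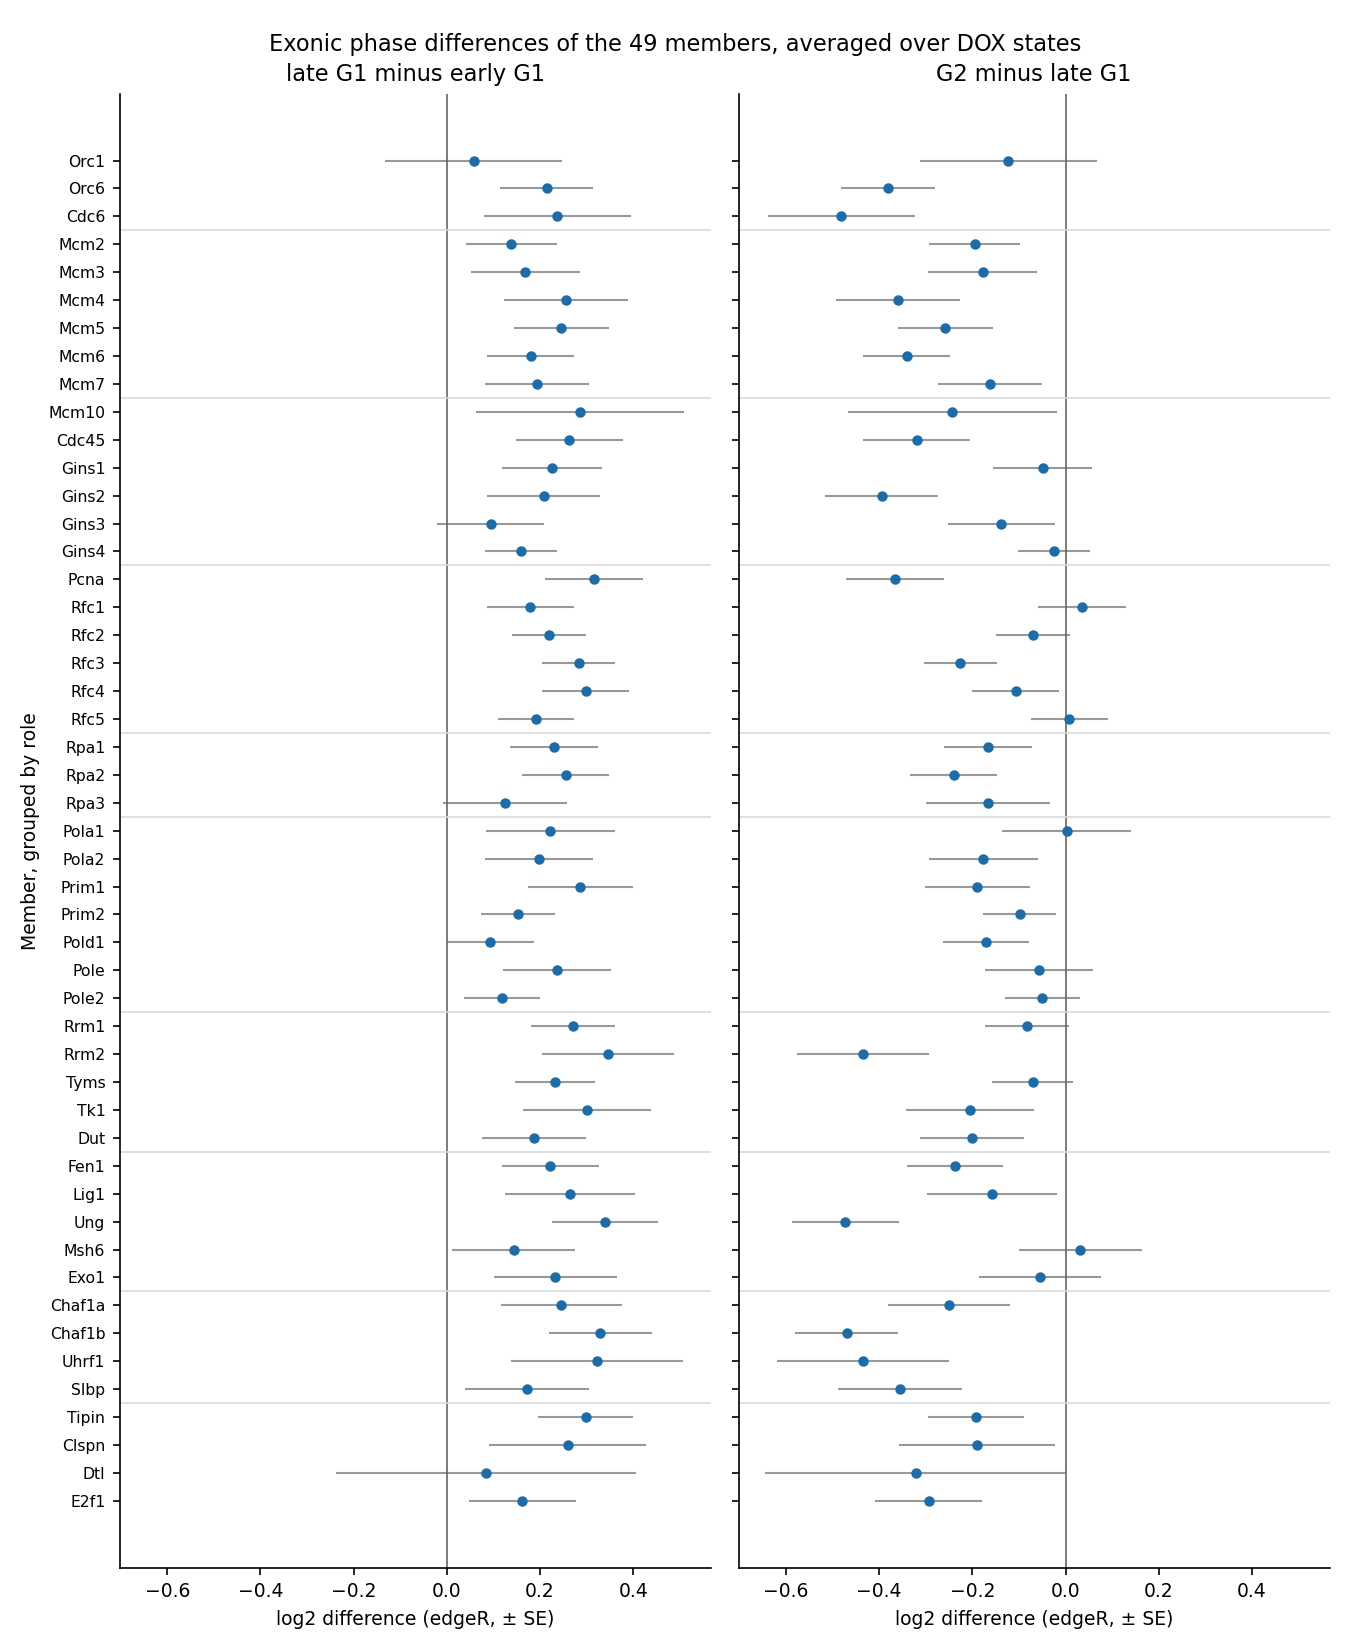
Fitted log2 differences of exonic counts between phases, averaged over both DOX states, for each of the 49 genes, ordered by role with lines between roles; points are edgeR estimates and bars are 1 SE. All 49 points lie right of 0 for late G1 minus early G1, and 45 of 49 lie left of 0 for G2 minus late G1.

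Read by role, the late G1 minus early G1 median was largest for the genes of replicated chromatin and histone supply, at 0.28 over 4 genes, and for nucleotide supply, at 0.27 over 5 genes. It was 0.25 for the clamp and its loader, 0.23 for RPA, 0.22 for helicase activation, 0.21 for origin licensing, 0.20 for primase and polymerases and 0.19 for the MCM helicase. Differences between roles were not tested. From late G1 to G2 the chromatin genes had the lowest median, at -0.40, followed by origin licensing at -0.38. The clamp and its loader, at -0.09, and the polymerases, at -0.10, lay nearest to 0.

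Within origin licensing, Orc6 had averaged log2 differences of 0.21 from early to late G1 and -0.38 from late G1 to G2, near those of Cdc6 and apart from Orc1. The 6 MCM subunits, which form 1 ring, lay close together, from 0.14 (Mcm2) to 0.26 (Mcm4) and from -0.16 (Mcm7) to -0.36 (Mcm4). The helicase activators were less alike. Cdc45 was at 0.26 and -0.32 and Mcm10 at 0.29 and -0.24, while the 4 GINS subunits ran from 0.09 (Gins3) to 0.23 (Gins1) and from -0.39 (Gins2) to -0.02 (Gins4).

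In the clamp loader, Rfc4 (0.30) and Rfc3 (0.28) had the largest late minus early values and Rfc1 (0.18) the smallest. From late G1 to G2 only Rfc3, at -0.23, stood below -0.20 among the 5 RFC subunits. The polymerase genes ran from 0.09 (Pold1) to 0.29 (Prim1, the catalytic primase subunit), with Pola1 at 0.22, Pola2 at 0.20, Pole at 0.24, Pole2 at 0.12 and Prim2 at 0.15. Their G2 minus late G1 values were between -0.19 (Prim1) and 0.00 (Pola1).

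In nucleotide supply, Tk1 (thymidine kinase) was at 0.30 and -0.20 and Rrm1, the large reductase subunit, at 0.27 and -0.08. Tyms, which makes thymidylate, was at 0.23 and -0.07, and Dut, which removes dUTP, at 0.19 and -0.20. Of the flap and repair genes, Fen1, the flap nuclease, was at 0.22 and -0.24, the mismatch factor Msh6 at 0.14 and 0.03 and the exonuclease Exo1 at 0.23 and -0.05. The late to G2 value of Exo1 turned positive, to as much as 0.031, without replicate 3 of late G1 with DOX or replicate 2 of late G1 after withdrawal. Slbp was at 0.17 and -0.36, Chaf1a at 0.25 and -0.25, Clspn, a checkpoint adaptor, at 0.26 and -0.19, and E2f1, an activator of the G1/S genes, at 0.16 and -0.29. None of these passed the test.

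Rrm2, the small subunit of ribonucleotide reductase, had the largest averaged difference between late and early G1. With DOX it was at 121, 175 and 172 CPM in early G1, 159, 182 and 237 in late G1 and 149, 123 and 170.2 in G2. After withdrawal it was at 218, 147 and 202, then 251, 257 and 234, then 153, 151 and 228. The 3 late G1 libraries stood above all early G1 libraries after withdrawal, while the groups overlapped with DOX. The averaged log2 difference was 0.35 ± 0.14 (SE) for late minus early G1 and -0.43 ± 0.14 for G2 minus late G1, with an edgeR adjusted p of at least 0.999 for both.

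Pcna encodes the sliding clamp that holds polymerases on DNA. It was at 474, 572 and 477 CPM in early G1, 598, 565 and 687 in late G1 and 586, 443 and 470.3 in G2 with DOX. After withdrawal the values were 652, 541 and 514, then 715, 837 and 627, then 466, 551 and 603. All 3 G2 libraries were below all 3 late G1 libraries after withdrawal, and every other pair of neighbouring phases overlapped. The averaged log2 differences were 0.32 ± 0.11 and -0.37 ± 0.11.

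Chaf1b, a subunit of the CAF-1 histone chaperone, was at 110.4, 117 and 125 CPM in late G1 and 103, 82.6 and 79.9 in G2 with DOX, without overlap. After withdrawal the same groups were at 109, 135 and 106 and 69.3, 81.1 and 91.7, again without overlap. Ung, which removes uracil from DNA, was at 95.5, 112 and 133 CPM in late G1 with DOX and 86.8, 65.3 and 86.1 in the G2 libraries. After withdrawal these groups were at 107, 116 and 106 and 80.1, 68.3 and 96.4. Both genes were lower in every G2 library than in every late G1 library of the same DOX state. The averaged G2 minus late G1 differences were -0.47 ± 0.11 for each gene.

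Cdc6, the helicase loader, showed the lowest averaged G2 minus late G1 value, -0.48 ± 0.16. It was at 136, 138 and 173 CPM in late G1 against 123, 70.9 and 117 in G2 while DOX was present, and at 131, 179.5 and 141 against 82.6, 124 and 127 after withdrawal. Neither pair of groups overlapped. Uhrf1, which carries DNA methylation through replication, was at 199, 422 and 398 CPM in early G1 and 275, 423 and 543 in late G1 with DOX, with overlap. After withdrawal it was at 378, 317 and 395 and 463, 485 and 453, without overlap.

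Among the helicase subunits, Mcm6 was at 440.2, 484 and 521 CPM in late G1 with DOX and 435, 321 and 397 in the G2 libraries. After withdrawal these groups were at 519.7, 583 and 435 and 374, 410.2 and 417, and there was no overlap in either state. Its averaged difference was -0.34 ± 0.09. Orc1, the largest subunit of the origin recognition complex, and Dtl, which directs Cdt1 to degradation, had the smallest late minus early values, at 0.06 ± 0.19 and 0.08 ± 0.32. Dtl was at 42.6, 104 and 95.9 CPM in early G1 and 45.4, 99.7 and 110.5 in late G1 with DOX. Its replicate 1 was the lowest library of each group, so that the spread within groups was far wider than the difference between them. Both values turned negative, to as low as -0.056 for Orc1 and -0.076 for Dtl, without replicate 1 of early G1 in either DOX state, without replicate 3 of late G1 with DOX or without replicate 2 of late G1 after withdrawal.

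**Figure D2:**
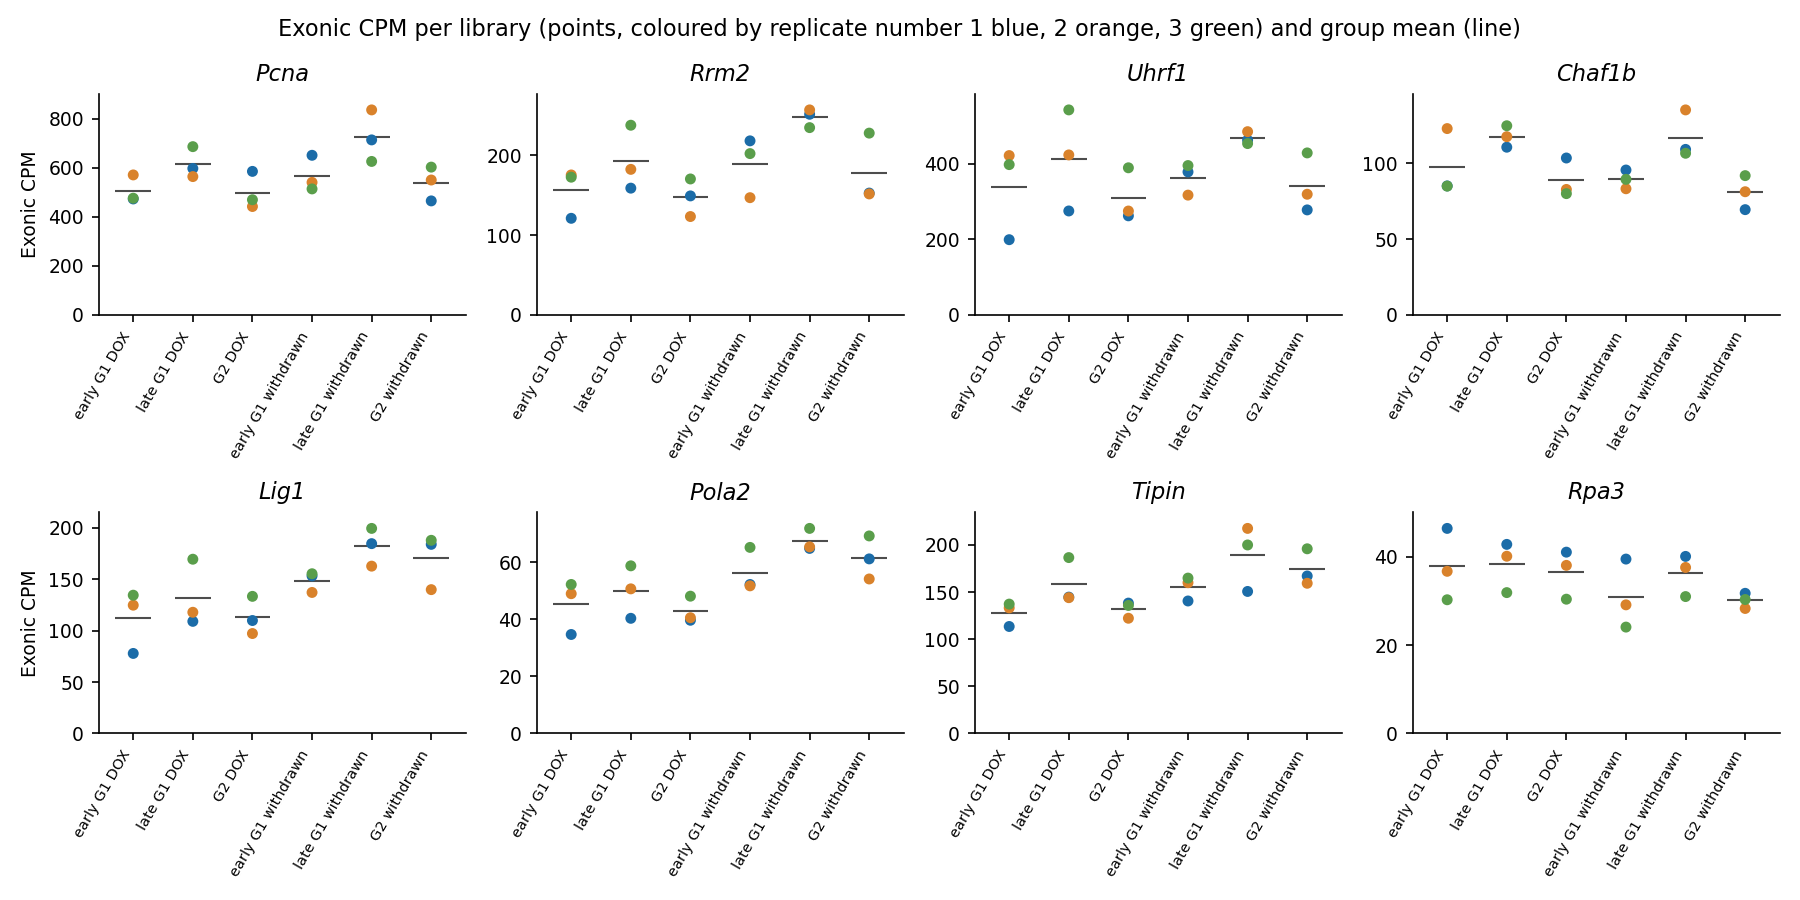
Exonic CPM of 8 genes in the 18 RNA-seq libraries, in 6 groups of 3; points are libraries coloured by replicate number, horizontal lines are group means and each axis starts at 0. Rrm2 after withdrawal is higher in every late G1 library (234 to 257) than in every early G1 library (147 to 218), and Lig1 in G2 is higher in every withdrawn library than in every DOX library.

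Libraries of the same number tended to deviate together, so pairs of the same number were compared as well. Higher in late than in early G1 in all 6 such pairs were 27 of 49 genes, against 782 of 14092 (5.55%), and the 6 MCM subunits Mcm2, Mcm3, Mcm4, Mcm5, Mcm6 and Mcm7 were among them. Lower in G2 than in late G1 in all 6 pairs were 23 of 49, against 683 of 14092 (4.85%), also with the 6 MCM subunits. Every late G1 library stood above every early G1 library for 10 genes with DOX, against 308 in all (2.19%), and for 17 after withdrawal, against 357 (2.53%). Every G2 library stood below every late G1 library for 7 genes with DOX, against 370 (2.63%), and for 16 after withdrawal, against 425 (3.02%).

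The size of the shift differed between pairs. With DOX the median over the 49 genes was 0.34 for number 1, 0.01 for number 2 and 0.33 for number 3, and after withdrawal it was 0.12, 0.37 and 0.20. The 26 G2/M genes, which serve here as markers of cells later in the cycle, moved by 0.86, -0.02 and -0.39 in the same DOX pairs and by 0.06, -0.37 and 0.38 after withdrawal. They were thus higher in late G1 in some pairs and lower in others, while the median of the 49 genes was above 0 in all 6. Their summed level was between 3120 and 6891 CPM in early G1, 3535 and 7073 in late G1 and 6894 and 9165 in G2, so that early and late G1 overlapped. Their part in the result was not tested. Without replicate 1 of early G1 with DOX, the library with the lowest level of both lists, 47 of 49 genes were still higher in late G1 and the median was 0.16. Over the 12 fits that each left out 1 library, the median was between 0.16 and 0.26 for late minus early G1 and between -0.23 and -0.12 for G2 minus late G1. In bulk RNA of sorted cells, fewer cells that express a gene and less RNA per cell cannot be told apart.

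**Figure D3:**
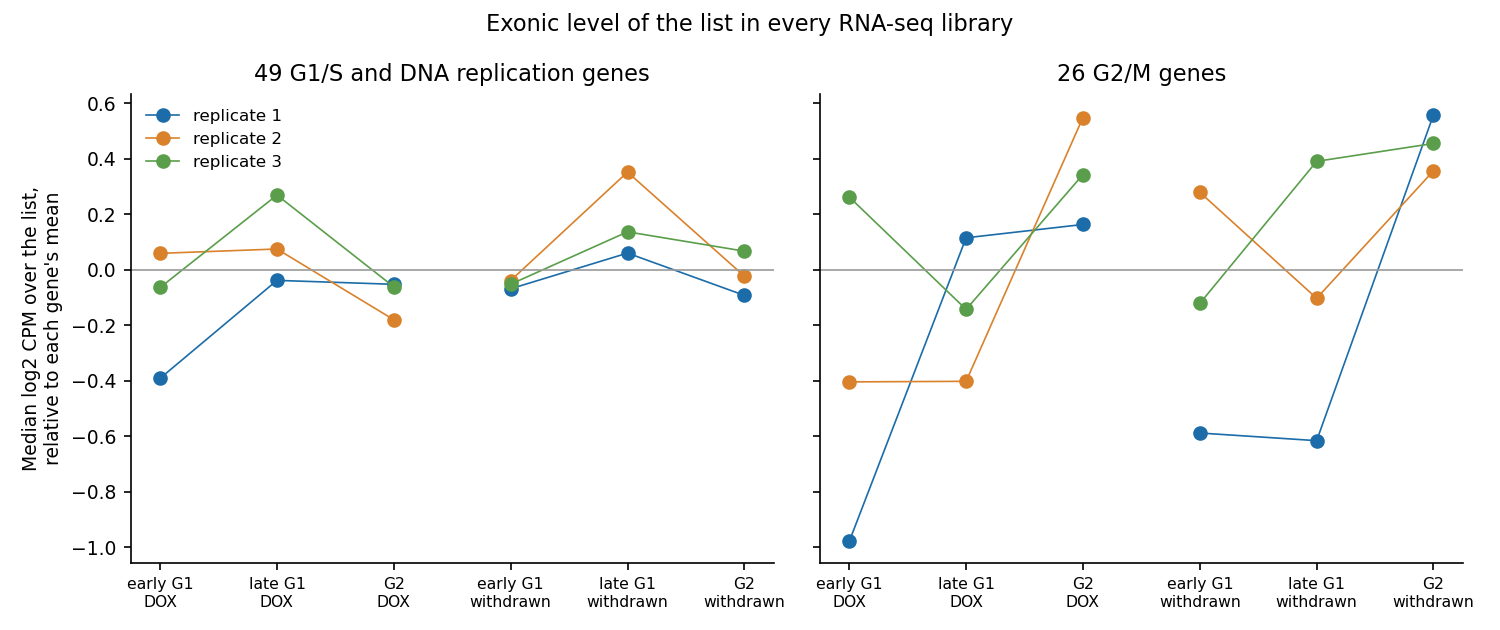
Median log2 exonic level over 49 G1/S and replication genes (left) and 26 G2/M genes (right) in each of 18 libraries, relative to each gene's mean; lines join libraries of the same replicate number within a DOX state. For the 49 genes the lowest library is replicate 1 of early G1 with DOX (-0.39) and the highest is replicate 2 of late G1 after withdrawal (0.35).

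Intronic counts, which come mainly from unspliced RNA, had smaller differences, which depended more on single libraries. The median late minus early G1 difference was 0.10 over the 49 genes, with 38 higher, against 0.00 over all genes tested, of which 50% were higher. For G2 minus late G1 the median was -0.08, with 7 of 49 higher, and for G2 minus early G1 it was -0.01, with 22 higher. Without replicate 1 of early G1, the late minus early median was 0.04 (35 higher) for the library with DOX and 0.05 (33 higher) for the withdrawn one, and it was 0.16 without replicate 1 of late G1 after withdrawal. Within the withdrawn state the same omission of early G1 replicate 1 turned the median to -0.02, with 23 of 49 higher. With DOX, leaving out early G1 replicate 1 of that state gave 0.01, with 25 higher. The averaged G2 minus late G1 median was lowest, at -0.14, without replicate 1 of late G1 after withdrawal. It was highest, at -0.04 (18 higher), without replicate 1 of G2 after withdrawal. Within the withdrawn state the latter omission turned it to 0.03, with 28 higher. With DOX it was -0.0055 (23 higher) without replicate 3 of late G1. By edgeR, 0 of 49 and 0 genes in all (0%) were called in each phase comparison over introns, with 5 and 2 of the 49 at an unadjusted p under 0.05, against 344 and 415 in all. DESeq2 called 0 as well. Higher in all 6 pairs in late G1 were 7 of 49 genes, Mcm5, Mcm6, Msh6, Rfc4, Rfc5, Tipin and Uhrf1, against 382 of 14075 (2.71%). Lower in all 6 pairs in G2 were also 7, Cdc6, Chaf1a, Mcm6, Mcm7, Rpa2, Rrm2 and Uhrf1, against 358 of 14075 (2.54%). By role, the late minus early G1 value over introns was above 0 for 6 of 6 genes of the clamp and its loader, 7 of 7 of primase and polymerases and 5 of 5 of flap, ligation and repair. For helicase activation it was so for 3 of 6 and for RPA for 1 of 3. The intronic range was from -0.09 (Rpa3) to 0.32 (Pola1).

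Withdrawal of DOX moved the 49 genes little as a list. Over counts summed over the 3 phases, the median log2 change was 0.05, with 33 of 49 higher, against 0.01 over all genes tested. It was 0.01 (25 higher) without the withdrawn replicate 2 and 0.10 (35 higher) without the DOX replicate 3. Within a phase the median turned negative, to -0.03 in early G1 without its DOX replicate 1 and to -0.02 in late G1 without its withdrawn replicate 2. Without the block, edgeR called 0 of 49 in early G1, where 0.163% of all genes were called, 0 in late G1 (0.461%), 0 in G2 (0.972%) and 0 on the summed counts (0.155%). At an unadjusted p under 0.05 these were 0, 2, 4 and 3 genes, against 9.63%, 13.1%, 14.4% and 14.0% of all genes. DESeq2 called 0 of the 49 too, against 122, 337, 454 and 523 genes in all. With the replicate block the calls were 0 of 49 in early G1 (4.03% of all genes), 2 in late G1 (9.04%), 3 in G2 (11.2%) and 5 on the summed counts (11.7%), all of them higher after withdrawal. As shares of the 49 genes these counts are under the shares called over all genes in both directions. Higher alone were 677 of 14092 genes in late G1, 813 of 14092 in G2 and 989 of 14847 on the summed counts. Against these, the 49 genes were not under the share in G2 or on the summed counts. The response did not pass a test of difference between phases for any of the 49 genes or any gene (0%), with or without the block.

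By role, the summed exonic change was above 0 for 5 of 5 genes of nucleotide supply, with a median of 0.17 and Rrm2 highest at 0.28. It was above 0 for 3 of 3 of origin licensing (median 0.09), 5 of 6 of the MCM helicase (0.04) and 4 of 6 of helicase activation (0.02). Among chromatin genes 2 of 4 were above 0, from -0.13 (Slbp) to 0.12 (Uhrf1). Over introns the 3 licensing genes and the 6 MCM subunits were all below 0, between -0.17 (Orc1) and -0.032 (Mcm3), so that exonic and intronic values differed in sign for most of them, and none passed the test.

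Lig1, the ligase that joins Okazaki fragments, had the largest change. It was at 77.9, 125 and 135 CPM in early G1 with DOX and 153, 137 and 155 after withdrawal. In late G1 it was at 109, 118 and 169.6 against 185, 163 and 199.6, and in G2 at 109.9, 97.3 and 133 against 184, 140.0 and 188. The withdrawn libraries were above all DOX libraries in early G1 and G2, and the groups overlapped in late G1. On summed counts the log2 change was 0.49 ± 0.16 with adjusted p = 0.219 in edgeR, and 0.51 ± 0.11 with adjusted p = 0.0162 with the block.

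Pola2, the regulatory subunit of the polymerase that starts each new strand, was at 40.3, 50.7 and 58.7 CPM in late G1 with DOX and 64.8, 65.4 and 71.8 after withdrawal. In G2 it was at 39.7, 40.5 and 48.1 against 61.2, 54.1 and 69.2, and neither phase showed overlap. In early G1 it was at 34.7, 49 and 52.2 against 52.2, 51.7 and 65.2, where the lowest withdrawn library fell below the highest DOX library. The summed change was 0.43 ± 0.15 (edgeR adjusted p = 0.240), and 0.44 ± 0.09 with the block (adjusted p = 0.0170).

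Tipin, which steadies stalled forks, was at 138, 122 and 136 CPM in G2 with DOX and 167, 159 and 196 after withdrawal, without overlap. In early G1 it was at 113, 133 and 137 against 140.5, 159.9 and 165, again without overlap, and in late G1 at 145, 144 and 187 against 151, 217 and 199.9, with overlap. The summed change was 0.32 ± 0.12 (edgeR adjusted p = 0.277), and 0.32 ± 0.08 with the block (adjusted p = 0.0348). Mcm10, a helicase activator, at 0.38 ± 0.10 (adjusted p = 0.0322), and Pola1, the catalytic partner of Pola2, at 0.30 ± 0.09 (adjusted p = 0.0484), were also called with the block alone in edgeR on the summed counts.

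Every withdrawn library exceeded every DOX library for 2 of 49 genes in early G1, Lig1 and Tipin, against 955 of 14092 (6.78%), and for 1 in late G1, Pola2, against 1147 (8.14%). In G2 there were 6, Lig1, Pola1, Pola2, Rpa1, Rrm1 and Tipin, against 1263 (8.96%). Every withdrawn library was lower for 0 of 49 in each phase, against 1079 (7.66%), 1271 (9.02%) and 1412 (10%). Higher after withdrawal in all 9 same-numbered pairs were Lig1, Pola2, Rpa1 and Tipin, 4 of 49 against 1202 of 14092 (8.53%). Lower in all 9 was Rpa3, the smallest RPA subunit, 1 of 49 against 1248 of 14092 (8.86%). RPA binds single-stranded DNA as 1 complex. Its subunits were at 0.25 ± 0.12 (Rpa1), -0.10 ± 0.11 (Rpa2) and -0.22 ± 0.15 (Rpa3). None of these passed the test, and differences between the subunits were not tested.

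Over introns the median withdrawal change on summed counts was 0.00, with 24 of 49 higher. This median depended on single libraries. It was -0.07 (14 higher) without the DOX replicate 1 and 0.10 (40 higher) without the withdrawn replicate 1. Without the block edgeR called 0 of 49 in any phase, against 0% of all genes in early G1, 0.0142% in late G1, 0.0142% in G2 and 0% on the summed counts, and DESeq2 also called 0 of the 49, against 12, 13, 38 and 61 genes in all. At an unadjusted p under 0.05 edgeR had 2, 4, 1 and 4 of the 49, against 5.73%, 5.83%, 7.70% and 6.73% of all genes. With the block 0 were called in early G1 (0.476% of all genes), 1 in late G1 (0.632%), 0 in G2 (1.62%) and 1 on the summed counts (3.48%), both lower after withdrawal. Ung was the gene called in late G1, at 24.6, 31.3 and 30.8 intronic CPM with DOX and 15.9, 20.9 and 21.2 after withdrawal, without overlap, with a log2 change of -0.58 ± 0.13 (adjusted p = 0.0447 in edgeR with the block and 0.503 without). Slbp, which binds histone mRNA, was called on the summed counts, at -0.31 ± 0.08 (adjusted p = 0.0402 with the block and 0.791 without). Pola2 and Tipin were higher over introns as well, at 0.32 ± 0.12 and 0.21 ± 0.10 on summed counts, and Lig1 was at 0.09 ± 0.15, none called. In all 9 pairs Pola2, Prim2 and Tipin were higher, 3 of 49 against 550 of 14075 (3.91%), and Orc1, Rfc3 and Slbp were lower, 3 of 49 against 499 of 14075 (3.55%).

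**Figure D4:**
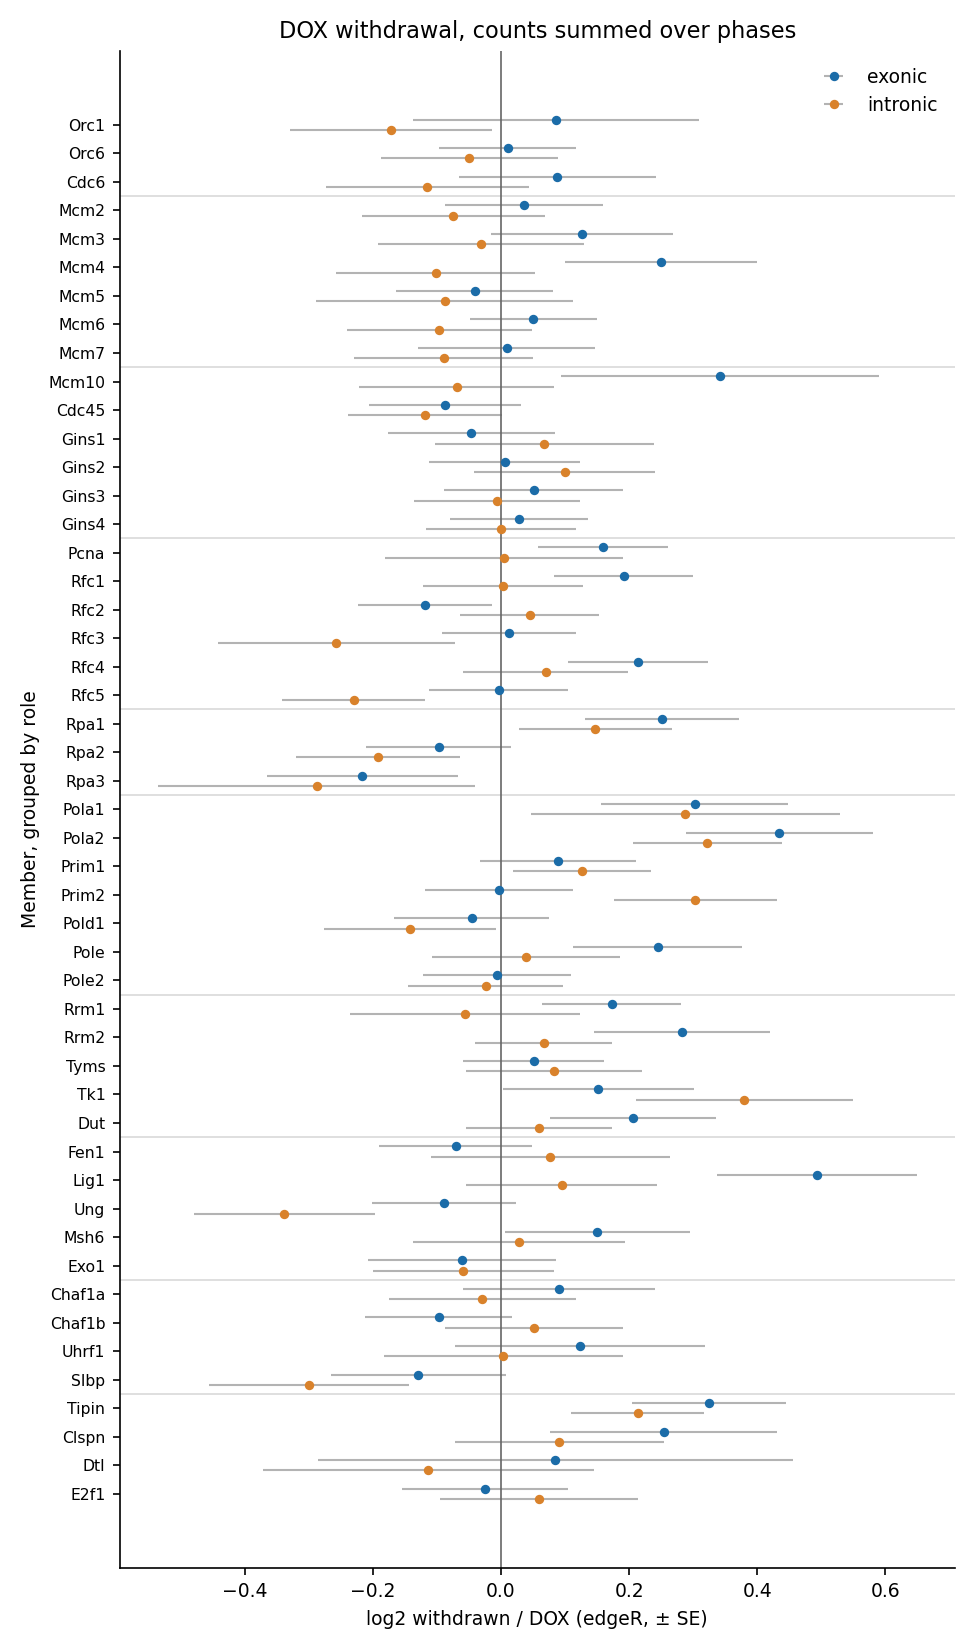
Fitted log2 change after DOX withdrawal on counts summed over the 3 phases, for each of the 49 genes over exons (blue) and introns (orange), ordered by role; points are edgeR estimates without the replicate block and bars are 1 SE. Lig1 (0.49) and Pola2 (0.43) lie farthest to the right over exons and Rpa3 (-0.22) farthest to the left.

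The 56 other replication genes, a list of licensing regulators, further polymerases and repair factors, gave a smaller phase difference. The averaged late minus early G1 median was 0.15, with 48 of 56 higher, and 0 were called. After withdrawal 40 of 56 were higher on summed counts, with a median of 0.10. None was called without the block, and with it 11 were higher and 0 lower, against 1734 of 14847 genes (11.7%) called in both directions, 989 of them higher. The 5 of these with the smallest p were Mcmbp, an MCM binding protein (0.51 ± 0.10), Ticrr, which helps to fire origins (0.41 ± 0.09), Hells, a chromatin remodeller (0.38 ± 0.08), the repressor E2f8 (0.55 ± 0.12), and Dck, a nucleoside kinase (0.33 ± 0.08).

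Esrrb peaks lay within 50 kb of the start of 36 of the 49 genes (73.5%), against 60.9% of all genes tested in exons, and 89 peaks did so in all. The share was 73.1% for the 26 G2/M genes and 50% for the 56 other replication genes. Within 10 kb lay a peak of 16 of 49 (32.7%), against 27.2% of all genes, 38.5% of G2/M genes and 14.3% of other replication genes. Within 2 kb of the start lay the nearest peak of 9 genes, which are Rfc1, Pole, Cdc45, Cdc6, Rrm1, Rpa1, Uhrf1, Msh6 and Rrm2. Between 2 and 10 kb lay those of Tk1, Chaf1a, Pola2, Fen1, E2f1, Rfc2 and Rfc5. That of Chaf1a, 3.0 kb before its start, was only 0.7 kb from the start of Sh3gl1. Those of Pole, Rpa1 and Tk1 were also slightly nearer to another start, that of Pxmp2 (0.6 kb), Smyd4 (0.8 kb) and Afmid (2.5 kb). Lig1 had its nearest peak 20.3 kb inside the gene and Tipin 11.8 kb before the start, while those of Mcm2, Mcm6 and Mcm7 lay 27.3, 32.9 and 40.5 kb away. The authors sort their peaks into Bookmarked and Lost, and 15 of the 89 were Bookmarked, against 13.6% of all 14559 peaks. Peak positions are in build mm9.

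The peak near Cdc6 (chr11:98767951-98769000, centred 0.7 kb before the start, Bookmarked) was at 3.12, 3.91, 3.37 and 4.81 reads per kb per M reads in interphase with DOX. It was at 2.18, 1.41, 1.23 and 1.49 in mitosis with DOX, so that the groups did not overlap, and the limma log2 difference was -1.28 ± 0.46 (adjusted p = 0.0128). After withdrawal it was at 0.394 and 0.942 in interphase and at 0.205 and 0.638 in mitosis, below every DOX library of the same state.

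The peak near Rpa1 (chr11:75162151-75163350, 0.9 kb before the start and 0.8 kb from that of Smyd4, Bookmarked) was at 2.33, 3.51, 2.17 and 2.42 in interphase and at 2.21, 1.84, 1.11 and 1.97 in mitosis with DOX. These groups overlapped, and the difference was -0.57 ± 0.47 (limma adjusted p = 0.245). The peak inside Cdc45 (chr16:18811051-18811650, 0.7 kb after the start, Lost) was at 2.73, 8.59, 9.51 and 38.3 in interphase and at 0.763, 1.14, 0.939 and 0.983 in mitosis. The height of 38.3 came from replicate 4, the ChIP-seq library of least depth. The Cdc45 peak fell by 3.35 ± 0.54 on the log2 scale (limma adjusted p = 2.1e-05).

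The peak near Rrm2 (chr12:25390951-25391850, 1.7 kb before the start, Lost) was at 2.62, 4.91, 4.30 and 4.78 in interphase and at 1.06, 1.25, 0.827 and 1.18 in mitosis with DOX, without overlap. A tall peak, picked after its values were seen, stood 32.9 kb before the start of Mcm6 (chr1:130288951-130289400, Lost), and nearer to that of Dars. It was at 6.90, 25.1, 16.5 and 31.0 in interphase and at 1.75, 0.922, 1.12 and 0.852 in mitosis.

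Over the 89 peaks, limma called 79 lower in mitosis than in interphase with DOX, against 91.4% of all peaks called, with a median of -2.19 near these genes and -2.26 over all peaks. After withdrawal in interphase 89 of 89 were lower, against 99.6%, with medians of -3.69 and -3.74. In mitosis withdrawal lowered 31 of 89, against 22.4%, with medians of -1.57 and -1.33. In both states the DOX group includes the wild-type replicate 2, while the withdrawn libraries are EKOiE cells. Genotype is thus mixed with DOX in part. In interphase 89 of 89 were still lower without that replicate, where 14456 of all 14559 peaks were called. The count for withdrawal in mitosis rests on single libraries. It was 12, 17 and 9 without replicates 2, 3 and 4 of mitosis with DOX, against 1347, 2020 and 904 of all 14559 peaks. Of these, replicate 2 is the wild-type library. The median near these genes was -0.81 without withdrawn replicate 1 and -2.49 without withdrawn replicate 2. Over all peaks the medians of these 2 fits were -0.56 and -2.15.

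**Figure D5:**
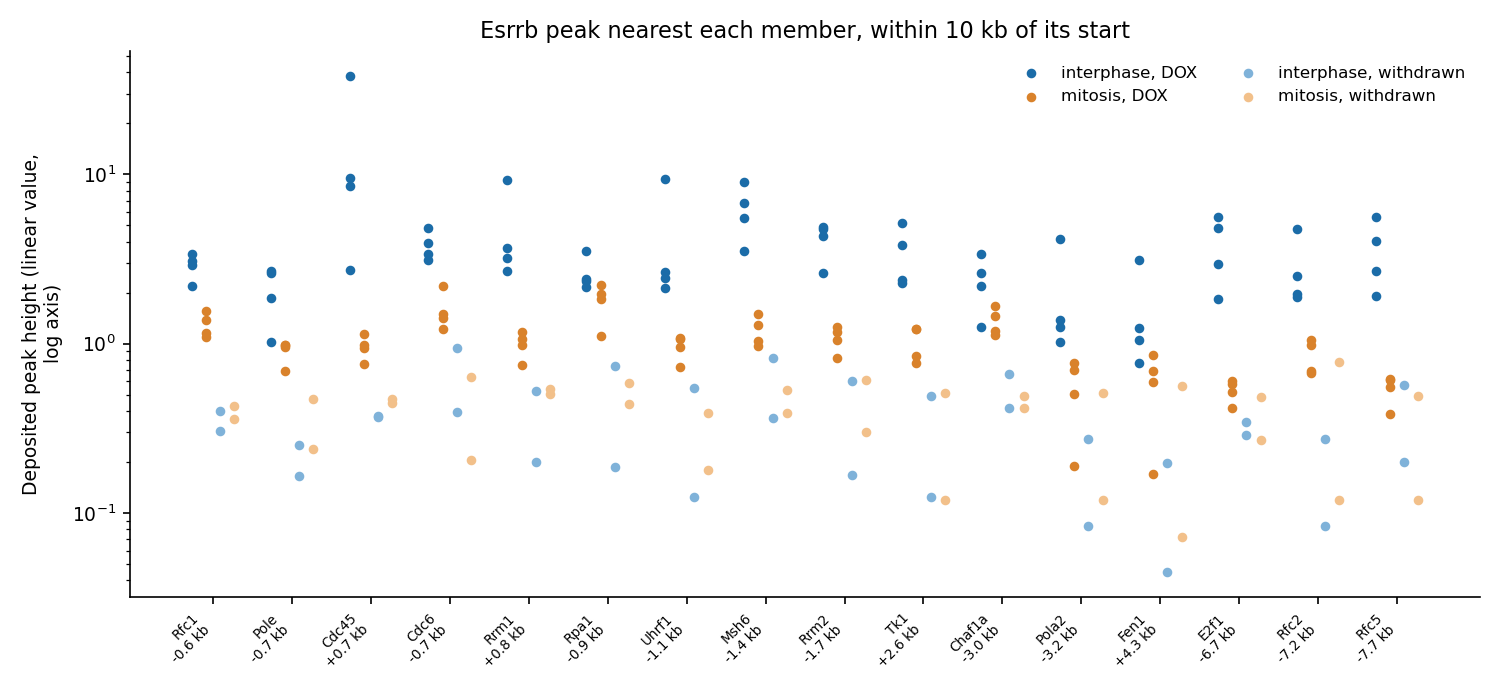
Height of the Esrrb peak nearest each of 16 genes with a peak within 10 kb of the start, in reads per kb per M reads on a log axis, with the distance under each name (minus is before the start); points are single ChIP-seq libraries. The highest point is replicate 4 of interphase with DOX for Cdc45 (38.3), whose other libraries of that group are at 2.73 to 9.51. For Rpa1 the interphase and mitosis libraries with DOX overlap.

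Genes with and without a near peak had close phase differences. The late minus early G1 median was 0.23 for the 16 genes with a peak within 10 kb and 0.22 for the other 33. After withdrawal the summed exonic medians were 0.14, with 11 of 16 higher, and 0.04, with 22 of 33 higher, and the difference was not tested. For the 16 genes with an E2F word and the 24 without, the late minus early G1 medians were 0.19 and 0.24, with all genes of both sets higher in late G1.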

How the data were processed

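RNA-seq was deposited as whole-number read counts, with exons and introns of each gene in separate tables. CASAVA 1.8, Bowtie, DESeq2 and build mm9 appear in the submitters' processing notes. The counter and its strand option are, like the annotation, not given in the sources used here. This leaves overlapping and antisense genes uncertain. Peak heights were deposited by the authors as log2 values, and 2 to the power of a height is taken as reads per kb per M reads. This gives whole reads (within 0.05 read), or 0.9 read at peaks taken as empty, with recovered depths of 10.7 M to 67.5 M reads. Empty peaks numbered 2418 in withdrawn interphase replicate 1, 3466 in withdrawn mitosis replicate 1 and at most 121 in any other library. Columns headed noco were taken as mitosis, and 4 pooled columns were not used. Counts of 18 libraries entered 1 edgeR 4.0.16 fit of 6 groups (R 4.3.3; filterByExpr, TMM, quasi-likelihood, Benjamini-Hochberg at 0.05). Counts summed over phases per number and DOX state had a fit of their own, over 14847 exonic and 14966 intronic genes. Peaks entered limma 3.58.1 with trend; each distance is from the peak's centre to the gene's start. The 49 genes and all lists were chosen with earlier results of these data known.

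Named genes were a fixed set of 16, the largest change in each role, genes with a near peak, and genes called; others were named from counts after their values were seen. Alternatives were DESeq2 1.42.0, RLE scaling, no filter, only the groups compared, the replicate number as a block, and each library left out. Same-numbered libraries correlated at 0.11 to 0.77 in deviations over exons and at 0.09 to 0.67 over introns. The numbers were therefore taken as pairs. Over introns 1 of 27 pairs was under 0.1. Over exons, withdrawn early G1 number 2 correlated at 0.19 with DOX number 2 of that phase, and at 0.24 with a DOX library of another number. Scripts were tested on simulated data.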

Additional observations from a re-analysis of the deposited data

Results flagged for a closer look

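Of 72 groups of 4 libraries, which are the nearest peak of 36 genes in interphase and in mitosis with DOX, 5 held 1 library far from the other 3, where chance gives about 5% of groups. In 4 of them it was interphase replicate 4, the ChIP-seq library of least depth (10.7 M reads). The 72 groups share the same libraries and are not independent. Over all peaks, interphase replicate 4 also had the highest median of its group, at 4.99 against 1.79, 3.28 and 2.61. Its height was 14.6 at the peak nearest Gins3 (others 3.85 to 5.26), 4.16 at that of Pola2 (others 1.02 to 1.38), 9.23 at that of Rrm1 (others 2.68 to 3.66) and 9.35 at that of Uhrf1 (others 2.12 to 2.65), in reads per kb per M reads. In mitosis, replicate 1 was low at the peak nearest Pole, at 0.691 against 0.955 to 0.984. RNA-seq groups of 3 libraries were not examined in this way.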

How the results depend on the processing

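Over RLE scaling, no filter and DESeq2, 0 of the 49 genes were called in each comparison, as in each fit without 1 library. Fits of only the groups compared, run for the 9 comparisons of 2 groups, also called 0.  The replicate block raised the exonic calls for withdrawal from 0 to 2 in late G1, 3 in G2 and 5 on summed counts, and the intronic calls from 0 to 1 in late G1 and 1 on summed counts; it changed no other call of these genes. Leaving out 1 library gave late minus early G1 differences of -0.076 to 0.25 for Dtl and -0.056 to 0.18 for Orc1, and G2 minus late G1 differences of -0.13 to 0.031 for Exo1; the cause was not tested. Within 10 kb lay 19 peaks, of which 14, 19 and 8 were called for mitosis against interphase, withdrawal in interphase and withdrawal in mitosis. Within 100 kb lay 172 peaks, with 153, 172 and 49 called in the same order. Over all peaks the shares called were 91.4%, 99.6% and 22.4%. For mitosis against interphase the median was -1.70 within 10 kb, against -2.26 over all peaks. Withdrawal in mitosis gave 4 called peaks in limma without trend and 0 to 52 when 1 library was left out. Without trend, 238 of all 14559 peaks were called in that comparison. The lowest and highest counts came from leaving out withdrawn replicates 1 and 2 of mitosis, in that order, which leaves 1 withdrawn library. Medians of these fits near the 49 genes were -0.81 and -2.49, against -0.56 and -2.15 over all peaks. No replicate block was run for the withdrawal comparisons of the ChIP-seq. The biological coefficient of variation over exons was 0.187, or 0.115 with the replicate block, and in neither fit did a phase difference of a single gene pass the adjusted threshold.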
